A study of Homo sapiens with 3 samples.

Results

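The genes described here encode proteins of the intercalated disc, the structure that joins heart muscle cells end to end. They are *DSP*, *PKP2*, *JUP*, *DSG2*, *DSC2*, *CDH2*, *CTNNA3*, *VCL* and *TJP1*, 9 genes chosen by their function. The data are promoter capture Hi-C calls from hESC-CMs, that is, cardiomyocytes grown out of the WA09 (H9) line of human embryonic stem cells, in 3 biological replicates. In this assay crosslinked DNA is cut with the restriction enzyme HindIII and ligated, and the products are enriched for fragments that carry a promoter. All 3 replicates came from the same condition and the same cell line, so no second group stands beside them and no test between conditions was possible. The labels state that purity was checked with the markers MYH7 and TNNT2. No expression was measured in the files used here, so the cell type could not be checked against markers.

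A promoter fragment of a gene was a fragment listed as the captured end that holds an annotated transcript start of that gene. Every pair of fragments with such a fragment at either end was taken as a contact, and a pair was counted once whichever end was listed first. Of the 9 genes, 7 had a promoter fragment, 1 each, with 90 contacts in all among the 200587 of the series. The share of 77.8% (95% Wilson interval 45.3% to 93.7%) stood beside 77.0% of the 20163 protein-coding genes of the annotation. Each contact carries a CHiCAGO score, which rates the evidence for more read pairs than a background set by distance and technical noise. It does not give the size of that excess. The lowest score listed was 5, so contacts that score less are not seen and a gap in the list does not mean that no contact was there. The files give neither read counts nor the depth of each replicate.

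Desmosomes anchor the intermediate filaments of neighbouring cells to each other. Desmosomal cadherins, the desmogleins and desmocollins, span the membranes, and the armadillo proteins plakoglobin and plakophilin join their tails to desmoplakin, which holds the filaments. In heart muscle these proteins mix with those of adherens junctions, N-cadherin and the catenins, in a hybrid junction called the area composita. Inherited variants in the desmosomal genes are a known cause of arrhythmogenic cardiomyopathy. The desmosomal cadherin genes lie together on chromosome 18, with the desmocollins transcribed in the direction opposite to the desmogleins.

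Among the contacts of these genes, that with the highest mean score joined the promoters of 2 of them, *DSG2* and *DSC2*. The promoter windows of both are shown because this contact is the centre of what follows. They are the 250 bases before the RefSeq transcript start, which matched GRCh37 once each, at chr18:29077890-29078139 on the plus strand for *DSG2* and chr18:28681224-28681473 on the minus strand for *DSC2*. The *DSG2* window ends at the gene's first annotated start, and the *DSC2* window lies 1262 bp inside the gene from its first annotated start. Neither overlaps an annotated exon.
DSG2 promoter: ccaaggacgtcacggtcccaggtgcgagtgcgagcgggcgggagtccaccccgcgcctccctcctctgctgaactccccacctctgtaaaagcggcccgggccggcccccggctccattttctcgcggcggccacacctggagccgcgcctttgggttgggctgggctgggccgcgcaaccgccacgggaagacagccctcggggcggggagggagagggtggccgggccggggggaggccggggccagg
DSC2 promoter: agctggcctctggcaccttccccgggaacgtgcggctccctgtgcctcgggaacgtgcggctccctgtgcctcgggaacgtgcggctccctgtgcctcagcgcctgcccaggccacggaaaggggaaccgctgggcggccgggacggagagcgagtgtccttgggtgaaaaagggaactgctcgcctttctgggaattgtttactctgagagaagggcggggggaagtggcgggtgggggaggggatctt

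GC content was 75.2% in the *DSG2* window and 66.8% in the *DSC2* window. A short fragment from each of the contacted regions is shown next, with the capitals at its ends marking what the HindIII cut leaves. The fragment inside *DSG2* is the shortest that the *DSC2* promoter contacted in all 3 replicates, 220 bp at chr18:29088964-29089183. The fragment between *DSC3* and *DSC2* is the shortest that the *DSG2* promoter contacted in at least 2 replicates, 188 bp at chr18:28624196-28624383.
DSG2 intron fragment: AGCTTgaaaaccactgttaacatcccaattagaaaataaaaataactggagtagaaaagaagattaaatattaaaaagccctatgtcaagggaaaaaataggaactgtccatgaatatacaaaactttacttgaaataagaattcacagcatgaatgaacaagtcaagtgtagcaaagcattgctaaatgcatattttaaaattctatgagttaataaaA
DSC3-DSC2 fragment: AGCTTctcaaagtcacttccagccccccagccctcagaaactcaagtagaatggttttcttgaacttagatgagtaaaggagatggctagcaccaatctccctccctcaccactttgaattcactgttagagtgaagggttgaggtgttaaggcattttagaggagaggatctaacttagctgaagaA

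The *PKP2* promoter had its most repeatable contacts with DNA where no protein-coding gene is annotated. The central 300 bases of the shorter of these fragments, chr12:32910649-32910948, are shown for that reason.
PKP2 fragment: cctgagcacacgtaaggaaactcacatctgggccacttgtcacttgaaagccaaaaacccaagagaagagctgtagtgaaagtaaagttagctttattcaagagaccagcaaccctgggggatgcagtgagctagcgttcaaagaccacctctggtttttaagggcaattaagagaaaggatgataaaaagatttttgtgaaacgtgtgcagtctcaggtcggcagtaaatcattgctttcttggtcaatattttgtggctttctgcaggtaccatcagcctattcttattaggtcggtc

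RefSeq promoter windows were found for 8 of the 9 genes. In the full windows, from 250 bases before the start to 50 after it, 7 motifs were searched on both strands. The letters AGATAA, as in sites of the GATA family, occur in 10.3% of 35116 such windows, and GGAATG, as for TEAD factors, in 14.0%. TAAAAATA, as for MEF2, occurs in 2.28%, AGGTGTGA, as for T-box factors, in 0.980%, and TATAAA, read here as the TATA box, in 11.5%. The CArG box and the CTCF core occur in 1.29% and 0.470%. The window of *VCL* held the TEAD letters, that of *CDH2* held the TATA box, and no other match was found in the 8 windows. The windows of *DSP*, *DSG2*, *DSC2* and *VCL* start on the promoter fragments described below. Those of *CDH2* and *TJP1* start 141305 and 148241 bp from the first annotated start and not on these fragments, so the TATA box of the *CDH2* window is not part of the *CDH2* promoter fragment. *JUP* and *CTNNA3* have no promoter fragment. In the fragments printed above, the same motifs gave 1 match, the MEF2 letters on the plus strand of the *DSG2* intron fragment. Those letters occur in 5.84% of the 2227 listed fragments of 200 to 240 bp. A match is a description of the letters, and the absence of one says only that they are not in the stretch searched.

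Replicates 1, 2 and 3 held 45, 46 and 53 contacts of the 7 promoters (48 ± 4.36, SD, n = 3). The series held 112473, 109731 and 110740. Of the 90 contacts, all 3 replicates called 17, 2 replicates called 20 and a single replicate called 53. The share called in all 3 was 18.9% (12.1% to 28.2%), with 24.0% over the whole series inside this interval. The intervals cover counting error only. At least 1 contact in all 3 replicates was present at 5 of the 7 promoter fragments (71.4%, 35.9% to 91.8%), beside 51.9% of the 19075 in the series. Neither count lay apart from the background. The promoters of *DSG2* and *DSC2* held 12 of the 17 contacts in all 3 replicates, 31.6% of their 38, and the other 5 promoters held 5, 9.62% of their 52. This split was made after the values were seen and was not tested. It does not describe each gene. *DSC2* had 9 of its 12 contacts in all 3 replicates (75%), and *DSG2* had 4 of its 27 (14.8%), below the share of the series. The contact between them counts for both. Among the other promoters, *PKP2* had 2 of its 3 in all 3 replicates (66.7%).

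**Figure D1:**
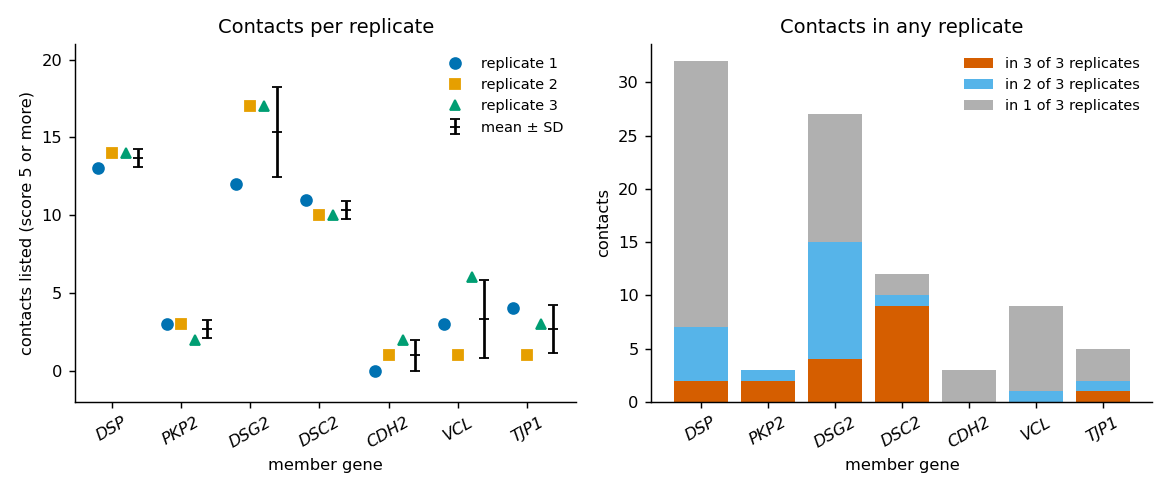
The left panel plots the number of contacts listed in each replicate for the 7 genes with a promoter fragment, with the mean ± SD. The right panel stacks the contacts of each gene by the number of replicates that called them. *DSP* has the most contacts, 32, of which 25 are in 1 replicate, while 9 of the 12 contacts of *DSC2* are in all 3.

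The contacts of these promoters are next set beside all contacts of the series, as a description. The median distance between fragment midpoints was 477 kb, where the series had 716 kb. This median does not describe each gene, since 38 of the 90 contacts belong to *DSG2* and *DSC2*, with medians of 453 and 407 kb. The medians were lower for *PKP2* (138 kb) and *TJP1* (300 kb). They were above that of the series for *VCL* (1209 kb), *CDH2* (2715 kb) and *DSP* (2933 kb). Distances above 1 Mb made up 34.4% of the contacts (31 of 90), beside 40.4% in the series. Contacts with another promoter fragment made up 7.78% (3.82% to 15.2%), beside 9.59%, and contacts within the same gene 4.44% (1.74% to 10.9%), beside 4.29%. No contact joined another chromosome (0 of 90), while 3.87% of the series did. A count of 0 in 90 independent contacts would allow a share of up to 3.33%. These contacts come from only 7 promoter fragments and are not independent, so the limit is wider and no difference is read from it. The median score was 5.95 against 6.32.

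**Figure D2:**
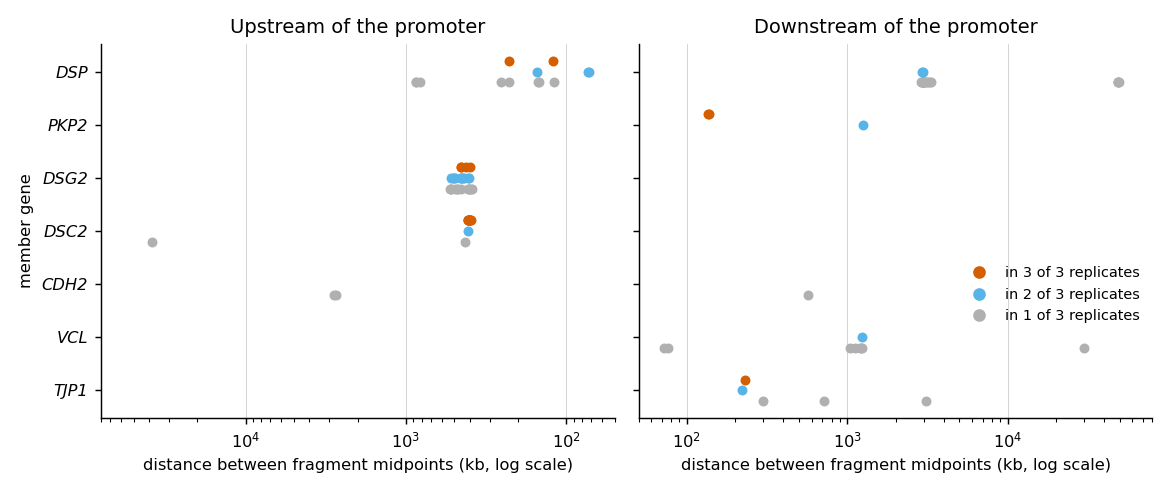
Each point is a contact, placed by its distance from the promoter fragment on a log scale in kb, upstream on the left and downstream on the right, and coloured by the number of replicates that called it. All contacts of *DSG2* and *DSC2* lie upstream, those of *PKP2*, *VCL* and *TJP1* lie downstream, and *DSP* and *CDH2* have both.

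*DSP* encodes desmoplakin, the plaque protein that binds intermediate filaments. The gene lies at chr6:7541571-7586947 on the plus strand and its promoter fragment of 6836 bp at chr6:7538657-7545492. It was contacted 13, 14 and 14 times in replicates 1, 2 and 3 (13.7 ± 0.577, SD). The union over replicates was 32 contacts, more than at 92.7% of the promoter fragments of the series, for which the median was 6. The even counts did not mean the same contacts, since the 3 replicates had only 2 in common, 5 were called in 2 and 25 in 1.

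Both contacts in all 3 replicates lay upstream. The fragment at the start of *SSR1*, a subunit of the complex that accompanies protein entry into the endoplasmic reticulum, lay 228.7 kb away and scored 5.33, 6.20 and 6.58 (6.04 ± 0.641). The fragment at 121.8 kb, where no protein-coding gene is annotated, scored 6.81, 5.21 and 5.45 (5.82 ± 0.863). All 6 scores were within 2 of the lowest score listed, and their ranges overlapped. On the merged replicates they scored 8.83 and 8.96.

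All 32 contacts of *DSP* fell into separate zones. Within 300 kb upstream were 10 fragments, in and around *SSR1*, *CAGE1* and the kinase gene *RIOK1*, with the 2 called in all 3 replicates among them. Of these 10, replicates 1, 2 and 3 called 5, 9 and 3, and all 10 were called on the merged replicates. The 3 fragments at 819 to 868 kb upstream were called in replicate 1 only. Downstream, 15 fragments lay between 2892 and 3348 kb, across a stretch of 461 kb with *GCNT2*, an enzyme of blood group I antigen synthesis, *TMEM14B*, *MAK* and *SYCP2L*. Their mean scores ran from 5.20 to 8.26, 2 of them were called in 2 replicates and 13 in 1, and none was called on the merged replicates. The 4 fragments at 48697 to 49493 kb, in *COL21A1*, *DST* and *ZNF451*, were each called in 1 replicate, with scores of 5.08 to 10.56, and none on the merged replicates. The highest scores of this promoter, 10.54 at an intron of *DST* in replicate 2 and 10.56 at *ZNF451* in replicate 3, were therefore each in a single replicate.

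**Figure D3:**
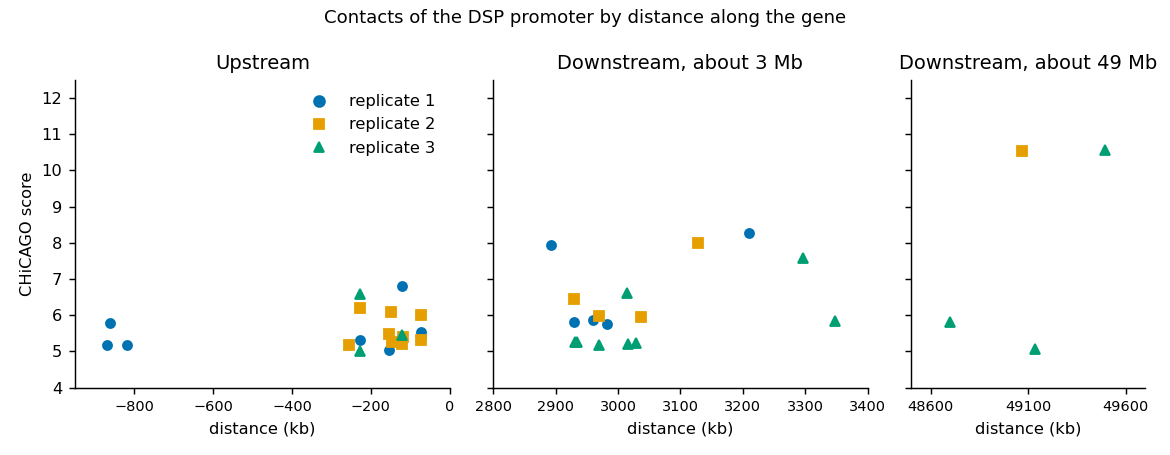
CHiCAGO scores of the contacts of the *DSP* promoter are plotted by replicate against distance in kb, with upstream distances negative, in 3 panels for the upstream zones, the zone near 3 Mb and the zone near 49 Mb. The upstream zone within 300 kb holds points of all 3 replicates at scores up to 6.81, and the highest scores, 10.54 and 10.56, are in the far zone in 1 replicate each.

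The promoter with contacts most like those of *DSP* was that of *SNRNP48*, a gene of the minor spliceosome whose promoter fragment lies 49.8 kb away. It contacted 29 fragments, of which 11 were shared, 34.4% of those of *DSP* and 37.9% of those of *SNRNP48* (Jaccard index 0.22). Of the 11, 6 lay within 300 kb upstream of *DSP*, 1 in the zone at 819 to 868 kb and 4 in the zone near 3 Mb. Other promoters reached into the *DSP* gene in 25 contacts, 3 of them in all 3 replicates. The shared promoter fragment of *CAGE1* and *RIOK1* made 11 of these, 2 in all 3 replicates with mean scores of 6.90 and 7.86.

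*PKP2* encodes plakophilin 2, the armadillo protein that links the desmosomal cadherins to desmoplakin. It lies at chr12:32943679-33049732 on the minus strand, with a promoter fragment of 4432 bp at chr12:33046809-33051240. There were 3, 3 and 2 contacts in the replicates (2.67 ± 0.577), and 69.96% of promoter fragments had more. Adjoining fragments past the far end of the gene, 29.4 and 32.6 kb beyond it, were called in all 3 replicates. The fragment at 136.4 kb from the promoter fragment scored 8.55, 6.22 and 7.51 (7.43 ± 1.17), and the one at 138.2 kb, whose sequence is given above in part, scored 7.03, 5.28 and 9.89 (7.40 ± 2.33). Their means differed by less than either SD. Both lie where no protein-coding gene is annotated.

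The third contact of *PKP2* was with the promoter fragment of *ETFBKMT*, a methyltransferase gene, at 1249 kb. It scored 5.59 and 6.86 in replicates 1 and 2 and was not listed in replicate 3. No contact of *PKP2* was limited to 1 replicate. The promoter of *SYT10*, a synaptotagmin gene 545.6 kb away, shared 2 of these fragments, 66.7% of those of *PKP2* and 22.2% of its own 9 (Jaccard index 0.20).

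*JUP* encodes plakoglobin, which binds the cadherin tails in desmosomes and adherens junctions. It lies at chr17:39910856-39943183, and all 12 of its annotated starts fall on a fragment of 36039 bp that was never listed as the captured end. That fragment was listed once, as the other end of a contact of the promoter of *GJD3*, a connexin gene, at 1411 kb with a score of 5.84 in replicate 2. No contact was thus listed from the *JUP* promoter as the captured end. Whether the fragment was left out of the capture or had no contact above the lowest score cannot be told apart here.

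*DSG2* encodes desmoglein 2, the desmoglein of heart muscle. It lies at chr18:29078140-29128971 on the plus strand, with a promoter fragment of 5883 bp at chr18:29072916-29078798. It had 12, 17 and 17 contacts in the replicates (15.3 ± 2.89) and 27 in the union, more than at 90.0% of promoter fragments. All 27 lay upstream in 1 region of 146.7 kb, chr18:28542276-28689016, at distances of 387 to 533 kb. This region holds *DSC3* and *DSC2* and comprises 62 HindIII fragments. Of the 27, 9 had their midpoint in *DSC3*, 8 in *DSC2*, 3 between these genes, 5 beyond *DSC3* and 2 past the start of *DSC2*.

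The contact with the *DSC2* promoter fragment, at 397 kb, scored 11.89, 15.92 and 21.51 (16.4 ± 4.83, SD, n = 3). It had the second highest score among the contacts of all 7 promoters in replicate 1 and the highest in replicates 2 and 3. In each replicate it was listed with *DSG2* as the captured end. Of the 10522 contacts of the series over 300 to 500 kb that were called in all 3 replicates, 6.42% had a higher mean score, as did 11.0% of the 1015 among them that joined promoter fragments at both ends.

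The contact with the promoter fragment of *DSC3*, a desmocollin gene known from stratified epithelia, scored 12.22, 14.59 and 9.10 (12.0 ± 2.75) at 453 kb. It was higher than that with *DSC2* in replicate 1 and lower in replicates 2 and 3, and the ranges overlapped. The third contact in all 3 replicates was with a promoter fragment inside *DSC2* that holds the start of the small RNA gene *snoU13*, at 424 kb, with scores of 11.54, 10.48 and 9.41 (10.5 ± 1.07). The fragment next to the *DSC3* promoter, in an intron of that gene, scored 5.27, 8.45 and 6.14 (6.62 ± 1.64). A further promoter fragment, that of the small RNA gene *RNU6-857P* beyond *DSC3*, scored 5.73 and 5.95 in replicates 2 and 3. Over the series the median mean score was 6.65 for the 19240 contacts between promoter fragments and 6.29 for the others.

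The remaining 23 contacts of *DSG2* scored lower or were less often listed. A pair of adjoining fragments between the *DSC3* promoter and *DSC2* was called in 2 replicates each. That at 452.0 kb scored 10.3 and 9.19 in replicates 2 and 3, and the one at 451.6 kb, printed above, scored 9.26 and 7.77 in replicates 1 and 2. None of the contacts of *DSG2* on the merged replicates was missing from the single replicates, and 14 of the 27 were called there. The farthest contact, at 533 kb, was called in replicate 3 at 5.46.

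*DSC2* encodes desmocollin 2, the desmocollin of heart muscle. It lies at chr18:28638806-28682485 on the minus strand, with a promoter fragment of 9665 bp at chr18:28673964-28683628. It had 11, 10 and 10 contacts (10.3 ± 0.577) and 12 in the union. All 3 replicates called 9 of these, 2 replicates called 1, and 2 were called once. Apart from 1 fragment at 38176 kb, called in replicate 3 at 7.18, they lay in a region of 39.6 kb, chr18:29070040-29109652, over the beginning of *DSG2*. Contacts were called with 11 of the 15 HindIII fragments in this region, and 9 of these adjoin each other, from the *DSG2* promoter fragment into the gene.

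Scores of *DSC2* were highest at the *DSG2* promoter fragment and lower inside the gene. The next fragment, an intron fragment at 401.2 kb from the *DSC2* promoter, scored 8.34, 9.40 and 10.1 (9.28 ± 0.886). The fragments at 403.3, 405.1 and 406.3 kb had mean scores of 6.34 ± 1.28, 7.49 ± 0.684 and 8.29 ± 1.42, so scores did not fall steadily with distance. The printed 220 bp fragment at 410.3 kb scored 5.30, 5.38 and 6.33 (5.67 ± 0.573). Fragments at 408.4 and 411.1 kb had means of 6.15 and 6.13, and a fragment a short way before the *DSG2* promoter fragment, at 391.5 kb, scored 5.34, 5.07 and 5.12.

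**Figure D4:**
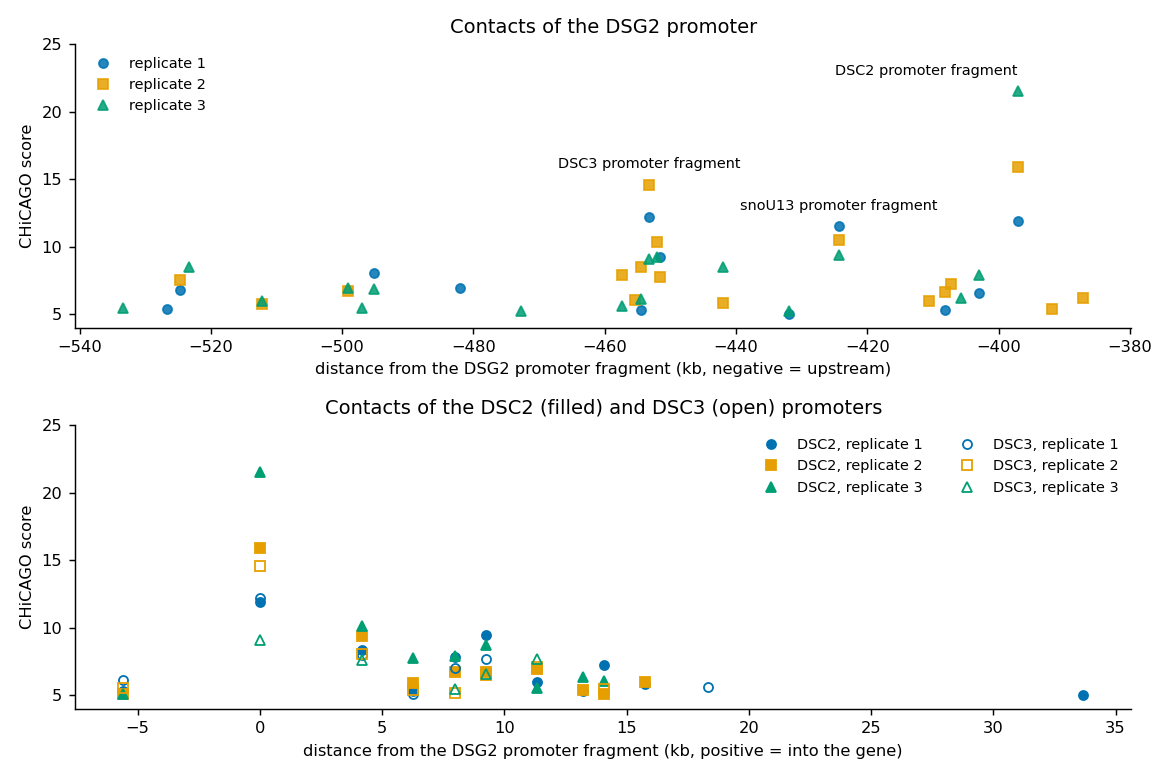
The upper panel plots the CHiCAGO score of each contact of the *DSG2* promoter by replicate against its upstream distance in kb. The lower panel plots contacts of the *DSC2* (filled) and *DSC3* (open) promoters around the *DSG2* promoter fragment, at 0 kb. The *DSC2* promoter stands highest in replicate 3 at 21.51, and scores of both desmocollin promoters are highest at the *DSG2* promoter fragment and lower inside the gene.

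The promoter with contacts most like those of *DSC2* was that of *DSC3*, 56.2 kb away. *DSC3* contacted 10 fragments, 4 of them in all 3 replicates, and 8 were shared, 66.7% of those of *DSC2* and 80% of those of *DSC3* (Jaccard index 0.571). All 4 of the fragments that *DSC3* contacted in all 3 replicates were also contacted by *DSC2* in all 3. On 6 of the 8 shared fragments the mean score of *DSC2* was the higher, and on 2 that of *DSC3*. Each mean is over the replicates that listed the contact, which for *DSC3* was fewer than 3 at 4 of the 8. *DSC2* and *DSC3* share the *DSG2* promoter fragment as a partner, so these contacts are not independent of those counted for *DSG2*.

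The promoters that lie between *DSC2* and *DSG2* had few contacts. Of the desmosomal cadherin genes there, *DSC1* had 2, *DSG1* 1, *DSG4* 2 and *DSG3* 1. In no replicate was any of these with the promoter fragment of *DSC2* or *DSG2*, though on the merged replicates *DSC2* contacted the *DSG3* promoter fragment at 5.01. The promoters of *DSC1* and *DSG4* contacted each other over 214 kb in all 3 replicates, at 7.59, 5.56 and 5.83 (6.33 ± 1.10). *DSG3* contacted the *snoU13* fragment inside *DSC2* in replicate 1 at 5.40. The *DSG2* promoter also contacted this fragment, which made *DSG3* 1 of 2 promoters tied as most like *DSG2* (Jaccard index 0.037).

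*CDH2* encodes N-cadherin, the adherens junction cadherin of heart muscle, and lies at chr18:25512843-25757910 on the minus strand. Its promoter fragment of 6070 bp had 0, 1 and 2 contacts in the replicates (1 ± 1), each in a different place and called once. The contact at 571 kb downstream scored 5.16 in replicate 2, and those at 2715 and 2795 kb upstream scored 6.73 and 5.40 in replicate 3. The last of these fragments lies beyond *DSC3* in the desmosomal cadherin region, and the *DSG2* promoter contacted it at 6.75 and 7.52 in replicates 1 and 2. It was the only fragment that *CDH2* and another of the 9 genes had in common. Neither upstream contact of *CDH2* was called on the merged replicates. The promoter with contacts most like those of *CDH2* was that of the small RNA gene *RNU6-1002P*, 3494 kb away. It contacted 1 fragment, which *CDH2* also contacted (Jaccard index 0.333). No other promoter was listed in contact with the 245 kb of the *CDH2* gene.

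*CTNNA3* encodes alpha-T-catenin, which binds plakophilin 2 in the area composita. It spans 1851 kb at chr10:67672215-69523395, and its 16 annotated starts lie on 7 fragments, none of which was listed in any replicate. Other promoters made 14 contacts with the gene, 1 of them in all 3 replicates. The promoter fragment of *LRRTM3*, a synaptic adhesion gene that lies within *CTNNA3*, made 6 of the 14, including the 1 in all 3, with a mean score of 8.60.

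*VCL* encodes vinculin, which couples junctions to actin. It lies at chr10:75754951-75881121 on the plus strand, with a promoter fragment of 4841 bp at chr10:75756485-75761325. There were 3, 1 and 6 contacts in the replicates (3.33 ± 2.52) and 9 in the union, none in all 3 and 8 in 1. All lay downstream. The contact with the fragment at a start of *VDAC2*, a channel of the mitochondrial outer membrane, at 1228 kb scored 7.37 and 5.78 in replicates 1 and 3 and was not listed in replicate 2. The fragments beside it on either side were called once each, at 5.95 in replicate 1 and 7.04 in replicate 3. Neither the *VDAC2* fragment nor those beside it were called on the merged replicates, where 2 of the 9 contacts were listed. The contacts in the gene itself, at 72.2 and 76.0 kb, were called in replicate 3 only, at 5.19 and 5.28. Other promoters made 20 contacts with the gene, 2 of them in all 3 replicates. The promoter fragment of *ADK* and *AP3M1* shared 5 of the 9 fragments, 55.6%, which were 13.9% of its own 36 (Jaccard index 0.125).

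*TJP1* encodes the scaffold protein ZO-1, which binds connexins and actin at the disc. It lies at chr15:29991571-30261118 on the minus strand. Its promoter fragment of 3558 bp, chr15:30246484-30250041, holds 1 annotated start, of a transcript that is not protein-coding. The fragment with 6 protein-coding starts, 1833 bp at chr15:30113110-30114942, was not listed. Contacts numbered 4, 1 and 3 in the replicates (2.67 ± 1.53) and 5 in the union. The contact in all 3 replicates was with an exon fragment of *TJP1* itself at 229.9 kb, scoring 5.70, 5.08 and 5.19 (5.32 ± 0.331). A second fragment in the gene, at 219.9 kb, scored 5.63 and 5.83 in replicates 1 and 3. The other 3 contacts were called once each. Other promoters made 9 contacts with the gene, 5 of them in all 3 replicates. All 5 came from a promoter fragment 118 kb away that holds genes without a symbol, with mean scores of 5.93 to 7.64. The same promoter fragment had the contacts most like those of *TJP1*. It shared 3 of the 5 fragments, 60%, which were 11.5% of its own 26 (Jaccard index 0.107).

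**Figure D5:**
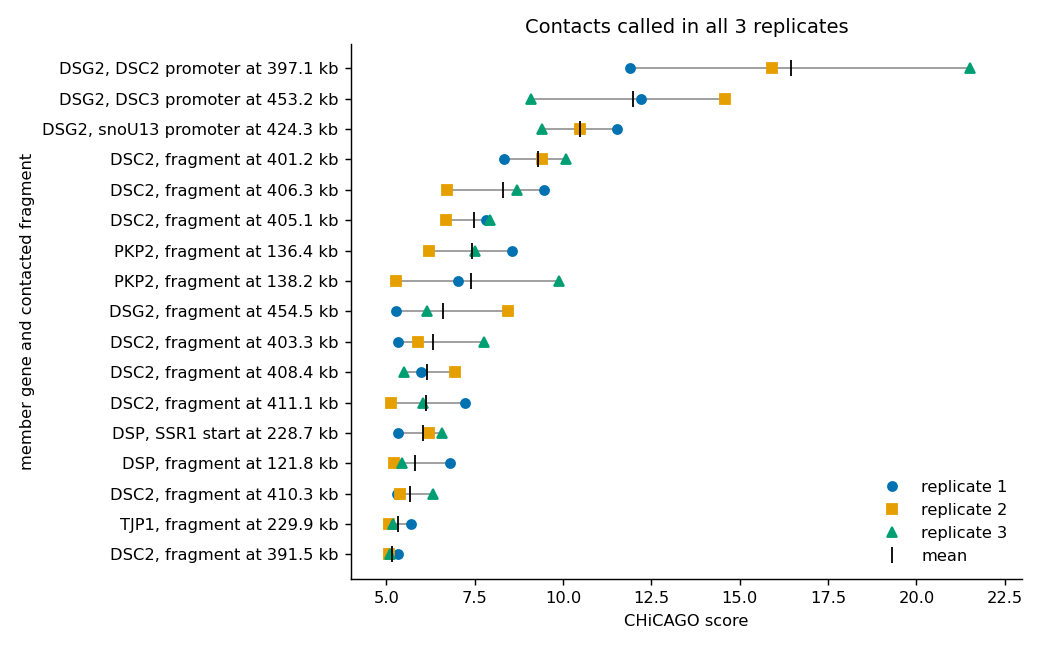
The 17 contacts called in all 3 replicates are ordered by their mean CHiCAGO score, with the score of each replicate and a line over their range, named by gene, contacted fragment and distance in kb. The contact between *DSG2* and the *DSC2* promoter has the highest mean, 16.4, and the widest range, and that of *DSC2* at 391.5 kb the lowest mean, 5.18.

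Among the 17 contacts in all 3 replicates the mean scores ran from 5.18 to 16.4, with a median of 6.62. Across the 7 promoters the order by number of contacts in the mean of the replicates was *DSG2*, *DSP*, *DSC2*, *VCL*, *PKP2* and *TJP1* at the same mean, and *CDH2*. The ranges of *DSG2* and *DSP* overlapped, as did those of *VCL*, *PKP2* and *TJP1*, and *CDH2*, with 0 to 2, overlapped those of all 3. *DSC2*, with 10 to 11, lay apart from *DSP* above it and from *VCL* below it. This order holds for calls on single replicates. On the merged replicates *DSC2* had the most contacts, 28, followed by *DSP* with 23, *DSG2* with 14, *TJP1* with 8, *PKP2* with 6, *VCL* with 3 and *CDH2* with 1.

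For comparison, 30 other genes of cell junctions were taken in 3 lists chosen by function. The 9 desmosomal genes known mainly from other tissues all had a promoter fragment and made 108 contacts, of which 46 (42.6%) were called in all 3 replicates. Most of these belonged to *PPL*, the periplakin gene, with 77 contacts, 38 of them in all 3. Of 10 genes of catenins and junction partners 8 had a promoter fragment, with 211 contacts and 20.4% in all 3. *CTNNA2*, with 3 promoter fragments, made 100 of the 211, of which 9 were in all 3. Of 11 genes of disc-associated proteins of muscle 10 had a promoter fragment, with 114 contacts and 42.1% in all 3. *GJA1*, the gap junction gene of working heart muscle, had 49, with 31 in all 3. *XIRP2*, *MYZAP*, *SORBS2*, *TLN1* and *TLN2* had none in all 3. In this list 5 of the 10 genes thus had at least 1 contact in all 3, near the 51.9% of promoter fragments in the series. Of all contacts of the series, 24.0% were called in all 3. Differences between the lists and the series were not tested. Contacts joining promoters of 2 different genes among the 39 were *DSC2* with *DSG2*, *DSC3* with *DSG2* and *DSC1* with *DSG4*, all within the desmosomal cadherin region and all called in all 3 replicates. The genes of this region lie close together, and how often other neighbouring genes make such contacts was not counted.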

How the data were processed

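The authors deposited promoter capture Hi-C calls for 3 biological replicates of hESC-CMs, and further calls on the merged replicates. Each line gives a pair of HindIII fragments and a CHiCAGO score, which the authors computed at default parameters from reads mapped to GRCh37 with HiCUP. No score was recomputed. Transcript starts and gene spans came from GENCODE v44 lifted to GRCh37, and fragment ends were compared with HindIII sites (144397 of 144398 fragments matched). Contacts were unordered pairs over the union of the 3 replicates, distances were between midpoints, and a mean score is over the replicates that listed the contact. Shares have 95% Wilson intervals. SDs are between replicates, which the labels call biological. Promoter windows came from RefSeq as matched to GRCh37.

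The genes and the lists compared with them were chosen with earlier results of these data known. Named contacts were, for each gene, the 5 highest by mean score called in all 3 replicates, those with another gene's promoter, those shared with another junction gene, the farthest in all 3, and the most similar promoter by Jaccard index. Other fragments and zones named in the text were chosen after their values were seen. Alternatives were scores of at least 7 and 10, each replicate left out, merged calls, ordered pairs, protein-coding starts, the fragment with the most starts, matching within 5 kb, a limit of 1 Mb, same-chromosome contacts, no promoter partners and midpoints. The counting was tested on simulated data. Python 3.11.15 with numpy 2.4.6, scipy 1.17.1 and matplotlib 3.10.9 was used.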

Additional observations from a re-analysis of the deposited data

Results flagged for a closer look

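The calls on the merged replicates, which entered none of the counts over single replicates or their union, held 38 contacts of these promoters that were listed in no single replicate. Of these, 17 belonged to *DSC2*, 13 to *DSP*, 4 to *TJP1*, 3 to *PKP2* and 1 to *VCL*. The 17 of *DSC2* had 6 fragments at *DSG3*, 5 at *DSG4*, 5 in *DSG2* and 1 at no gene with a symbol. More fragments at the desmoglein genes were thus listed for *DSC2* on the merged replicates than in a single replicate. Merged calls draw on more data than those of a single replicate, so the counts are not like for like. Of the 13 of *DSP*, 12 lay within 300 kb upstream. Over all 38, scores ran from 5.01 to 7.22, with a median of 5.61. In the other direction, only 44 of the 90 contacts of the single replicates were also called on the merged replicates. That share was 48.9% (38.8% to 59.0%), with 56.7% over the series inside this interval. No control sample was measured in the same way.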

How the results depend on the processing

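With scores of at least 7 and 10 the contacts fell to 29 and 7, the share in the same gene was 0 at both, and the median distance at 10 was 452 kb. At 7, *DSP* had 6 contacts in place of 32, *DSG2* 13 in place of 27 and *DSC2* 7 in place of 12. *VCL* had 2 in place of 9, *PKP2* 2 in place of 3, and *CDH2* and *TJP1* had none. Without replicate 1, 2 or 3 in turn, contacts numbered 65 to 76, the share in every remaining replicate was 28.9% to 40%, the median distance 432 to 496 kb and the share in the same gene 3.08% to 5.26%. The share called in all 3 replicates was 44.4% when a fragment within 5 kb counted as a match and 28.8% over at most 1 Mb, where the median distance was 408 kb. On the merged replicates the median distance was 315 kb and the share in the same gene 11.0%. On the merged replicates *DSC2* had 28 contacts in place of 12 and *DSG2* 14 in place of 27. Without replicate 3 *DSP* had 21 in place of 32, *VCL* 4 in place of 9 and *CDH2* 1 in place of 3, and without replicate 1 *TJP1* had 3 in place of 5. With protein-coding starts only, or the fragment with the most starts, *TJP1* had none. The other 20 values over all genes moved by less than the limits set for them. They are not 20 separate checks. The limit to the same chromosome could change nothing, since no contact joined another, and ordered pairs gave identical values. The rules of protein-coding starts and of the most starts gave the same values as each other. Of the 13 highest contacts by gene, 12 scored higher on the merged replicates than in the mean.

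The score threshold hides contacts that score lower, the files give no depth per replicate, and 3 replicates of 1 cell line cover no variation between lines. *JUP* and *CTNNA3* had no annotated start on a fragment listed as captured, and *TJP1* had none of its protein-coding starts on one, so values for 6 genes rest on a protein-coding promoter.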
